A study of Mus musculus with 6 samples.

Results

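The nuclear receptors of the liver are ligand-regulated and orphan transcription factors that set how the organ handles bile acids, sterols, fatty acids, hormones and foreign compounds. The set described here was a list of 35 receptor genes. A receptor was represented by the probe set that carries its symbol alone, which gave 34 genes with a value out of 19550 in the whole series. Each of the 34 genes lay on 1 such probe set. Nr1h2, the gene of liver X receptor beta, had none and was left out. A filter on low values, the 25th percentile of gene means (a value of 0.185), kept 31 of the 34 receptors among 14662 genes tested. Hnf4g, Vdr and Nr2f1 lay below it and are given by their values only.

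Liver RNA of male mice on the C57BL/6NCrSlc background was hybridised to 6 Affymetrix whole-transcript arrays, 2 in each of 3 groups. SMP30/GNL, the product of Rgn, is the gluconolactonase of ascorbic acid (AA, vitamin C) synthesis, so SMP30/GNL KO mice depend on AA in the drinking water. The AA-deficient knockouts received no AA, the AA-supplemented knockouts drank water with AA, stabilised with EDTA, and the wild type mice, which make their own, had a diet and water without vitamin C. All mice were fed the same AA-deficient chow, so that both knockout groups share the deletion and differ in the water. Whether the water without AA held EDTA too is not said, and AA and EDTA cannot be told apart if it did not. The supplemented knockouts differ from wild type in the genotype and in the water. The sources used here give no age, no time of day of collection and no word on pooling of animals. The labels call the arrays replicates without tying them to separate animals. P-values therefore speak only for the spread between samples, and that spread may be technical.

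Values are the deposited ones and are read as log10, so that a fold is 10 to the power of a difference. The base is an inference from the range of the values, -0.575 to 2.51. A receptor's difference between groups can be compared with that of another receptor, but not its level, since each probe set has its own response. Array medians lay between 0.350 and 0.392 and the arrays of a group correlated at 0.965 to 0.975 over all probe sets. Rgn read 2.07 and 2.0 in wild type, 0.34 and 0.14 in supplemented and 0.23 and 0.30 in deficient knockouts, as the labels require. The 7 hepatocyte markers averaged 2.07 to 2.24 on every array, far above the array medians.

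Nuclear receptors bind short DNA elements as monomers, as homodimers or as heterodimers with a retinoid X receptor (RXR), and exchange corepressors for coactivators when a ligand fits the binding pocket. In hepatocytes the farnesoid X receptor and the small heterodimer partner hold bile acid synthesis in check, PPAR alpha drives fatty acid oxidation, and CAR and PXR induce enzymes that clear drugs and steroids. Steroid receptors such as the glucocorticoid receptor wait in the cytosol on heat shock protein chaperones until hormone binds. The transcript level of a receptor is not its activity, which depends on ligand and cofactors.

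The 3 receptor genes that passed the test, Rora, Nr3c2 and Nr1i3, are shown by 250 bases before a RefSeq start (GRCm38.p6, all on the plus strand). That start is the most upstream of those with a promoter sequence at hand, and it is not the start of the gene span. They are printed because these are the genes the results turn on, and they show how their start regions differ in base composition. The start used lies after chr9:68653536-68653785 for Rora (Entrez 19883), chr8:76902080-76902329 for Nr3c2 (Entrez 110784) and chr1:171213720-171213969 for Nr1i3 (Entrez 12355). The gene spans used for length below begin at 68653404 for Rora, 76898083 for Nr3c2 and 171213934 for Nr1i3. The Rora and Nr3c2 stretches thus lie inside the span, and the end of the Nr1i3 stretch does. Capitals mark matches, on either strand, to the motifs searched: the nuclear receptor element AGGTCA, the direct repeat that holds AGGTCA at both ends with 1 base between (DR1), the E-box CACGTG of clock factors, TGTTCT (one arm of a glucocorticoid element), CCAAT and the GC box GGGCGG.
Rora: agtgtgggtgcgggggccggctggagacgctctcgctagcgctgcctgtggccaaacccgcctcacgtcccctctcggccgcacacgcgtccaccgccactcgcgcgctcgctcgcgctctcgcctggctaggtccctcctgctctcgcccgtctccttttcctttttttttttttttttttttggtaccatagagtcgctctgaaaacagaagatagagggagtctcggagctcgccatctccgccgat
Nr3c2: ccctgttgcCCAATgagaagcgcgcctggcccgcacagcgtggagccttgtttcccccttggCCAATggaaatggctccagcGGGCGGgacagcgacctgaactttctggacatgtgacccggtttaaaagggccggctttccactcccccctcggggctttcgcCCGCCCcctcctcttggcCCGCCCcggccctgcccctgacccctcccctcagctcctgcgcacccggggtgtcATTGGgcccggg
Nr1i3: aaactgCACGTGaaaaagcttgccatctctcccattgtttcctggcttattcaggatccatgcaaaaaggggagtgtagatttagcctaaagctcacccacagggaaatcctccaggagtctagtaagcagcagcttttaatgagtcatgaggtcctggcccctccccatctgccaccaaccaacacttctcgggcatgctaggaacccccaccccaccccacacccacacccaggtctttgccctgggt
The Rora stretch was 61.2% G and C with a CpG ratio (observed over expected) of 1.14, and none of the searched motifs lay in it. The Nr3c2 stretch was 68.4% G and C with a CpG ratio of 0.601, and it held 3 CCAAT and 3 GGGCGG matches. The Nr1i3 stretch was 53.2% G and C with a CpG ratio of 0.12, and its 1 match was a CACGTG 244 bases before the start. Over 27025 genes the medians were 52% G and C and a CpG ratio of 0.379, so that the start regions of Rora and Nr3c2 were CpG-rich and that of Nr1i3 was CpG-poor. None of these 3 stretches held AGGTCA.

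Of 34 receptors, 31 had a start region in the RefSeq table. GGGCGG was present in 18 of them (58.1%) against 33% of all genes, CCAAT in 10 (32.3% against 34.5%) and AGGTCA in 4 (12.9% against 13.8%), namely Nr1h4, Nr5a2, Rarg and Thrb. CACGTG was present in Nr0b2 and Nr1i3 (6.45% against 6.04%) and TGTTCT in Nr5a2 alone (3.23% against 16.1%). The DR1 repeat was in 0 of the 31 and in 0.037% of all genes. These matches describe letters, not binding sites.

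In AA-deficient knockouts against wild type, 3 of the 31 receptors tested rose and 0 fell, at an adjusted p under 0.05 (limma, Benjamini-Hochberg over all 14662 genes). Over all genes 4.63% passed, 3.08% as higher and 1.55% as lower. The receptors that rose were Rora, the RAR-related orphan receptor alpha of lipid metabolism and the clock; Nr3c2, the mineralocorticoid receptor; and Nr1i3, the constitutive androstane receptor (CAR), a sensor of foreign compounds. With 31 receptors, 3 calls are a small number to set against that background. At an unadjusted p under 0.05 there were 9 receptors, where 20.4% of all genes reached it.

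Rora read 1.08 and 1.06 in wild type, 1.22 and 1.23 in supplemented knockouts and 1.29 and 1.28 in deficient knockouts. The 3 groups did not overlap, in the order wild type, supplemented, deficient, and within each group the pairs nearly coincided. The rise over wild type was 0.22 (SE 0.039, 1.66-fold, adjusted p = 0.028). Supplemented knockouts lay 0.16 above wild type (SE 0.039, 1.44-fold, adjusted p = 0.229), and deficient lay 0.06 above supplemented knockouts (SE 0.039, adjusted p = 0.716), and neither difference passed.

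Nr3c2 read 0.36 and 0.36 in wild type, 0.31 and 0.39 in supplemented knockouts, and 0.59 and 0.73 in deficient knockouts. Both deficient arrays were above all 4 others, which overlapped each other. Those 4 values lay near the array medians (0.350 to 0.392), and without detection calls they may be background. Nr3c2 rose by 0.30 over wild type (SE 0.056, 2.0-fold, adjusted p = 0.0311). Over supplemented knockouts the difference was about as large, 0.31 (SE 0.056, 2.05-fold), but at an adjusted p of 0.104 it did not pass. Between supplemented knockouts and wild type the difference was -0.01, with a 95% interval of -0.14 to 0.12.

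Nr1i3 read 1.18 and 1.02 in wild type, 1.14 and 1.19 in supplemented knockouts, and 1.36 and 1.36 in deficient knockouts. The deficient livers were again above all the others, and the wild type pair differed from each other by more than the supplemented pair. The rise over wild type was 0.26 (SE 0.058, 1.82-fold, adjusted p = 0.0477). Deficient lay 0.19 above supplemented knockouts (SE 0.058, 1.57-fold, adjusted p = 0.287), and supplemented knockouts lay 0.07 above wild type (adjusted p = 0.745).

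**Figure D1:**
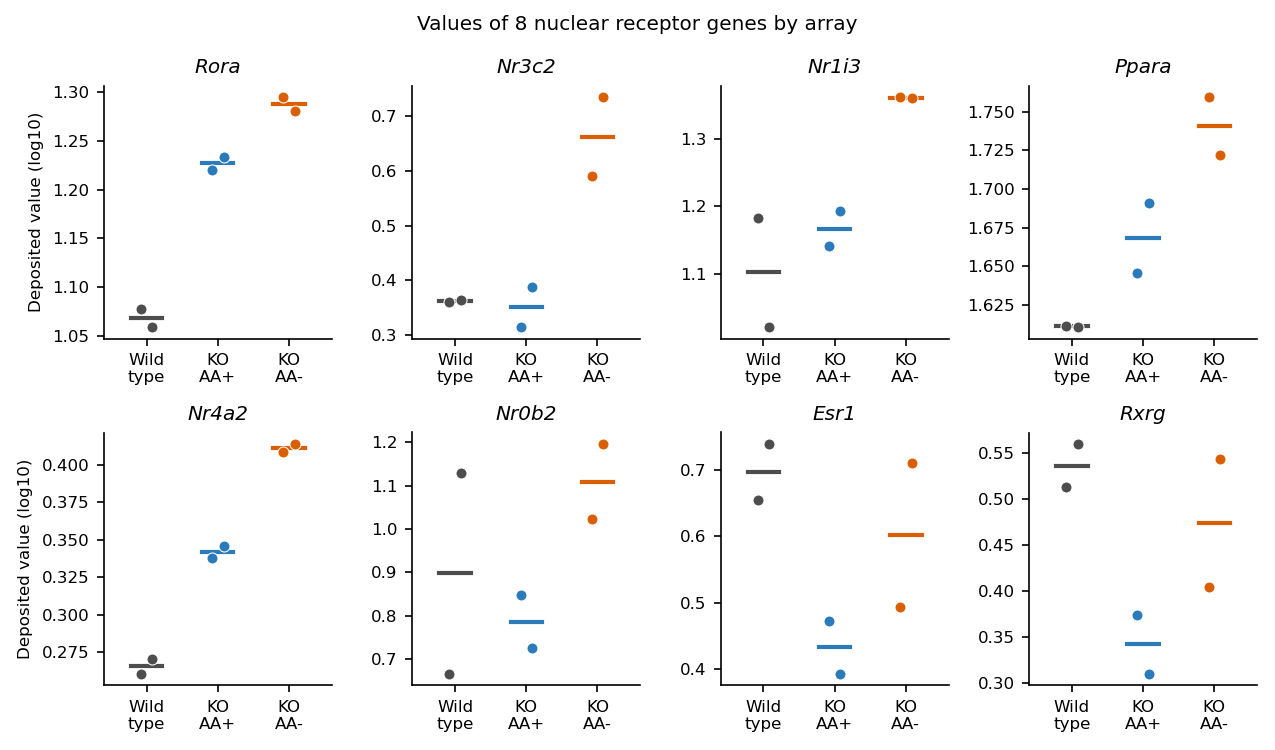
Values (deposited log10) of Rora, Nr3c2, Nr1i3, Ppara, Nr4a2, Nr0b2, Esr1 and Rxrg on each of the 6 arrays; dots are arrays and lines group means (n = 2), KO AA+ and KO AA- are the supplemented and deficient knockouts, and each panel has its own vertical axis, which does not start at 0. Rora, Ppara and Nr4a2 step up from wild type through supplemented to deficient knockouts, Nr3c2 and Nr1i3 stand apart in deficient livers, and Esr1 and Rxrg are lowest in supplemented knockouts.

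These 3 calls lay close to the threshold. Each was lost when genes of low value were kept (adjusted p of 0.0668 for Rora, 0.0706 for Nr3c2 and 0.0976 for Nr1i3). Leaving out a wild type or a deficient array leaves 1 array in that group, and most calls over all genes were then lost. These 3 were lost too, save Nr3c2 without deficient array 1. Over all alternative settings the differences ran from 0.16 to 0.23 for Rora, 0.23 to 0.37 for Nr3c2 and 0.18 to 0.34 for Nr1i3. Nr1i3 was also lost with quantile (0.0596) or cyclic loess normalisation (0.0526), and Rora when the trend on gene span was removed (0.16, adjusted p = 0.0708).

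As a set, 20 of the 31 receptors had a difference above 0 against wild type, where 7113 of 14662 genes did. Their median difference was 0.051, and that of all genes tested was -0.0034. The deficient pair lay wholly above the wild type pair for 16 receptors and wholly below for 6, 22 in all; over all genes these shares were 27.6%, 26.9% and 54.5%. The lowest difference was that of Esrra, at -0.12.

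**Figure D2:**
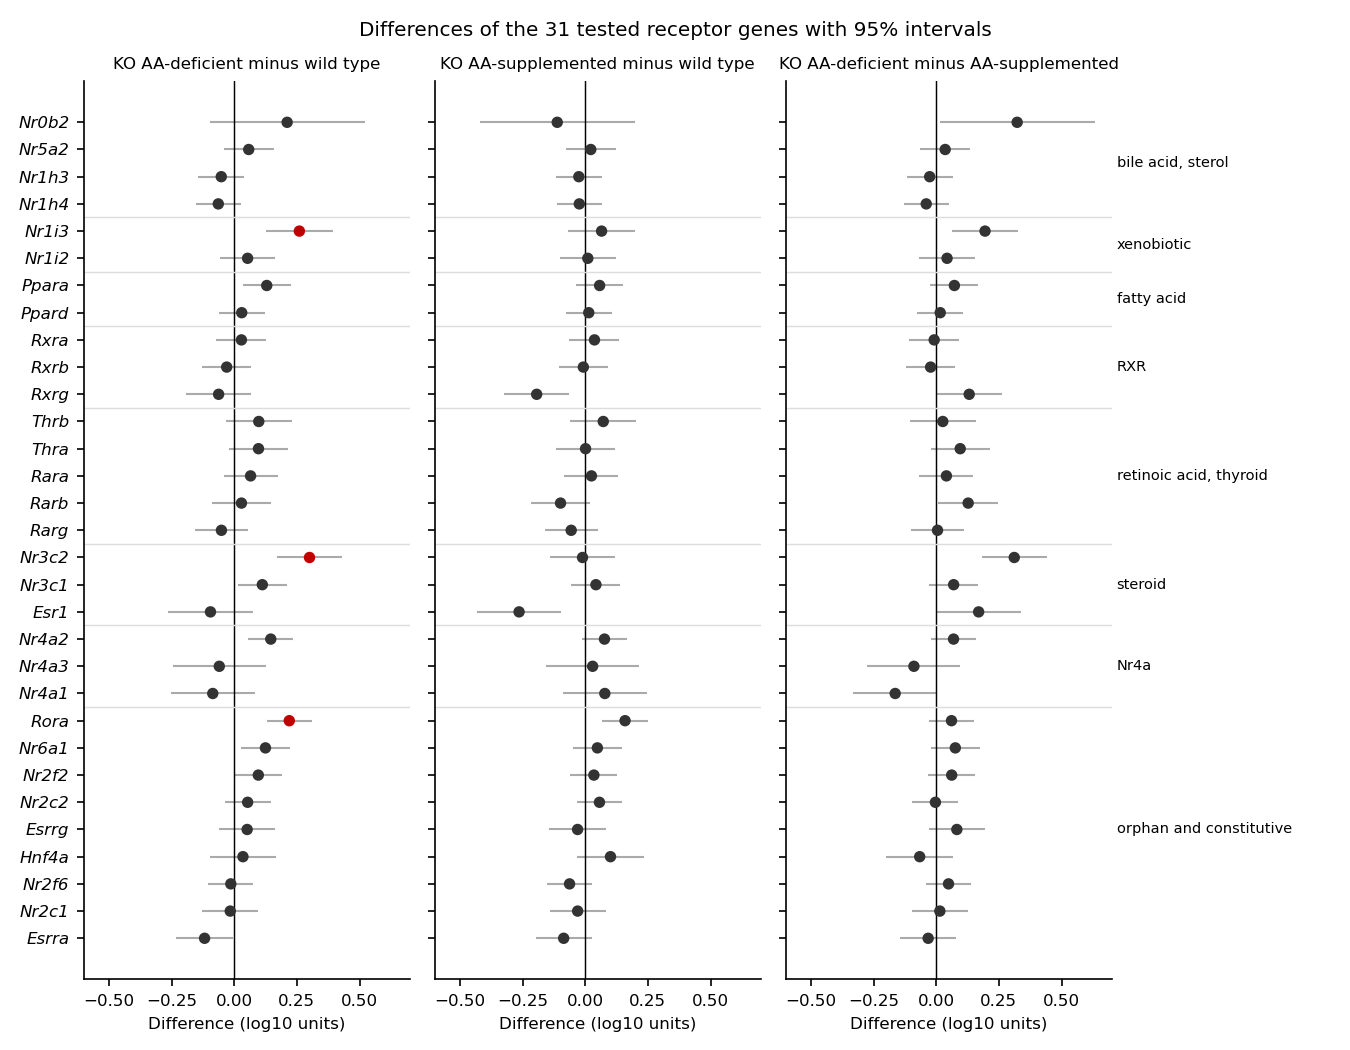
Difference in log10 value of each of the 31 receptors tested, in 3 panels for deficient knockouts minus wild type, supplemented knockouts minus wild type and deficient minus supplemented knockouts; bars are 95% intervals of the limma fit and red marks an adjusted p under 0.05. Only Rora, Nr3c2 and Nr1i3 against wild type in the first panel are red, and most intervals cross 0.

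No receptor of bile acids and sterols passed in any comparison. Nr1h4, the farnesoid X receptor (FXR), read 1.17 and 1.16 in wild type, 1.14 and 1.13 in supplemented and 1.10 and 1.09 in deficient knockouts. The 3 groups descended without overlap, by steps as small as the spread of the fit: deficient minus wild type was -0.06 (95% interval -0.15 to 0.03, adjusted p = 0.41). Nr1h3, liver X receptor alpha, had a mean difference of -0.05 (-0.14 to 0.04), and Nr5a2, the LRH-1 receptor that drives bile acid genes, one of 0.06 (-0.04 to 0.16). Nr0b2, the small heterodimer partner and a target of FXR, had the widest pair of any receptor in wild type: 0.67 and 1.13 in wild type, 0.85 and 0.72 in supplemented knockouts, and 1.02 and 1.20 in deficient knockouts. The wild type pair spanned the supplemented pair and overlapped the deficient one, while the deficient pair was above the supplemented pair by 0.32 (SE 0.13, 2.10-fold, adjusted p = 0.476).

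Target genes are given from lists drawn up from textbook knowledge, with results of these data known, so that their counts describe them and support nothing. The background for each count in deficient knockouts against wild type is that of all genes, of which 3.08% rose and 1.55% fell, with a median difference of -0.0034. Of 9 FXR-related genes tested, 1 rose in deficient knockouts against wild type and 0 fell. It was Cyp8b1, the sterol 12-alpha-hydroxylase that FXR represses through the small heterodimer partner, at 1.41 and 1.32 in wild type, 1.52 and 1.54 in supplemented and 1.78 and 1.68 in deficient knockouts (0.37, 2.33-fold, adjusted p = 0.0159). Baat, the bile acid conjugating enzyme, differed by -0.16 (adjusted p = 0.0594), and Abcb11, the bile salt export pump that FXR induces, by 0.11 (adjusted p = 0.196). Cyp7a1, which catalyses the committed step from cholesterol to bile acids, read 1.71 and 1.01 in wild type, 0.79 and 0.87 in supplemented and 1.28 and 1.5 in deficient knockouts. The wild type pair was so far apart that the 3.38-fold lower mean of supplemented knockouts had an adjusted p of 0.4.

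Of 10 liver X receptor (LXR) targets tested, 4 rose against wild type and 0 fell, where 3.08% and 1.55% of all genes did, with a median difference of 0.112 (-0.0034 over all genes). Srebf1, the master regulator of fatty acid synthesis, read 0.83 and 0.92 in wild type, 1.01 and 0.86 in supplemented and 1.26 and 1.42 in deficient knockouts (0.46, 2.91-fold, adjusted p = 0.0185). Abcg8 rose by 0.40 (2.5-fold, adjusted p = 0.0141) and its partner Abcg5, with which it forms the canalicular sterol exporter, by 0.26 (1.82-fold, adjusted p = 0.0495). Lpcat3, which remodels phospholipids, rose by 0.20 (1.60-fold, adjusted p = 0.0418). Abca1, the cholesterol exporter, instead had its highest values in supplemented knockouts, 1.64 and 1.76 against 1.38 and 1.5 in wild type (0.26, adjusted p = 0.22). The Nr1h3 transcript itself was 1.41 and 1.38 in wild type and 1.35 and 1.33 in deficient knockouts, a difference that did not pass (adjusted p = 0.529).

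Among the sensors of foreign compounds, Nr1i2, the pregnane X receptor (PXR), read 1.23 and 1.19 in wild type, 1.27 and 1.17 in supplemented and 1.26 and 1.27 in deficient knockouts, and its difference from wild type of 0.05 (95% interval -0.06 to 0.16) did not pass. Vdr, the vitamin D receptor, was below the filter, with values of 0.06 to 0.18. Of 13 genes on the shared CAR and PXR target list, 1 rose and 2 fell in deficient knockouts. Abcc3, the basolateral exporter Mrp3, rose by 0.43 (1.34 and 1.34 to 1.78 and 1.77, 2.71-fold, adjusted p = 0.00743). Cyp2b10, the cytochrome P450 that is the standard readout of CAR, fell by 0.51 on the log10 scale (adjusted p = 0.0458): wild type livers read 0.73 and 0.92, supplemented 0.72 and 0.36, and deficient 0.37 and 0.26. Sult1d1, a sulfotransferase, fell by 0.20 (adjusted p = 0.0458), and Cyp3a11, the usual readout of PXR, differed by 0.05 (adjusted p = 0.617). The CAR transcript was thus highest in the group where Cyp2b10 was lowest and Abcc3 highest. Over 18 alternative settings the difference ran from 0.18 to 0.34 for Nr1i3, -0.60 to -0.42 for Cyp2b10 and 0.42 to 0.44 for Abcc3. Each call was lost under some settings, those of Nr1i3 and Cyp2b10 under more than that of Abcc3. The settings are not separate checks. The fit of only the arrays compared recurs when either supplemented array is left out, and the exchanged replicate block was added after seeing the data.

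**Figure D3:**
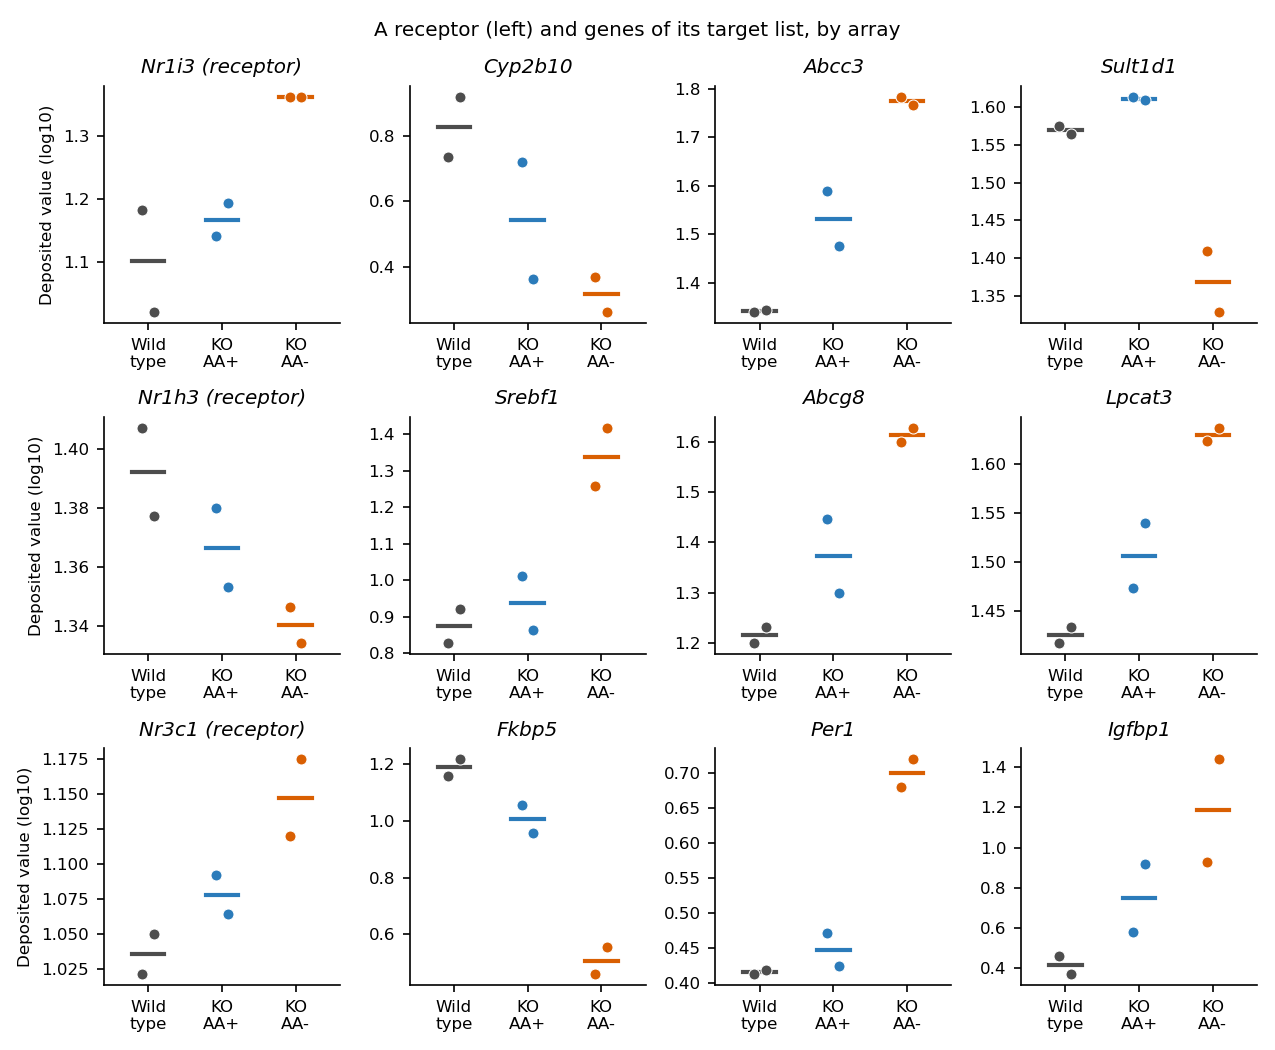
Values (deposited log10) on each array of 3 receptors in the left column (Nr1i3, Nr1h3 and Nr3c1) and 3 genes of each receptor's target list beside it; dots are arrays, lines group means (n = 2), and vertical axes differ and do not start at 0. Cyp2b10 and Fkbp5 are lowest in deficient knockouts, and Abcc3, Srebf1, Abcg8, Lpcat3, Per1 and Igfbp1 are highest there.

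Of the fatty acid receptors, Ppara read 1.61 and 1.61 in wild type, 1.65 and 1.69 in supplemented and 1.76 and 1.72 in deficient knockouts. The groups rose in that order without overlap, but the difference from wild type, 0.13 (SE 0.041, 1.35-fold), had an adjusted p of 0.125. Ppard, the ubiquitous PPAR delta, lay between 0.75 and 0.79 on all 6 arrays. Of 16 PPAR alpha targets tested, 1 rose and 0 fell against wild type: Ehhadh, a peroxisomal beta-oxidation enzyme, by 0.24 (1.76-fold, adjusted p = 0.0331). Acaa1b, a peroxisomal thiolase, differed by 0.22 (1.67-fold, adjusted p = 0.051). Cyp4a14, a fatty acid hydroxylase induced through PPAR alpha, read 1.42 and 0.89, then 1.80 and 1.13, then 2.10 and 1.82. Its mean was 6.32-fold higher in deficient knockouts than in wild type, with both pairs far apart and an adjusted p of 0.093; Vnn1, the pantetheinase, had the smallest p of this list between supplemented knockouts and wild type (0.22, adjusted p = 0.344).

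None of the 3 RXR genes passed in any comparison, where 4.63% of all genes or fewer did in each. Rxra, the main hepatic RXR, read 1.55 and 1.55 in wild type, 1.55 and 1.62 in supplemented and 1.58 and 1.58 in deficient knockouts (0.03 against wild type, 95% interval -0.07 to 0.13). Rxrb lay between 0.59 and 0.65 on all arrays. Rxrg, a form typical of muscle and brain, read 0.51 and 0.56 in wild type, 0.37 and 0.31 in supplemented and 0.40 and 0.54 in deficient knockouts. The supplemented pair was the lowest, by 0.19 against wild type (SE 0.056, 1.56-fold lower, adjusted p = 0.315) and by 0.13 against deficient knockouts (adjusted p = 0.491), and the deficient pair overlapped wild type. That supplemented pair lay near or below the array medians (0.350 to 0.392), where low values may be background.

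Among the retinoid and thyroid receptors 0 of 5 passed in any comparison, where 4.63% of all genes or fewer did in each. Rarb, a retinoic acid receptor that is itself induced by retinoic acid, read 0.41 and 0.41 in wild type, 0.27 and 0.35 in supplemented and 0.38 and 0.49 in deficient knockouts. It was thus lowest in supplemented livers, by 0.10 against wild type (SE 0.052, adjusted p = 0.554) and by 0.13 against deficient ones (SE 0.052, adjusted p = 0.458). The Rarb values lay around the array medians (0.350 to 0.392), where low values may be background. Rara, Rarg and both thyroid hormone receptors, Thra and Thrb, differed from wild type in deficient knockouts by -0.05 (Rarg) to 0.10 (Thra and Thrb). Of 6 retinoic acid targets tested, Dhrs3, a retinal reductase, rose in deficient knockouts by 0.28 (1.90-fold, adjusted p = 0.0159), and 0 fell. Of the enzymes that clear retinoic acid, Cyp26b1 differed by -0.25 (1.79-fold lower, pairs not overlapping, adjusted p = 0.161) and Cyp26a1 by 0.07 (adjusted p = 0.688). Of 8 thyroid hormone targets, Fasn, fatty acid synthase, rose by 0.45 (2.79-fold, adjusted p = 0.00597). Me1, malic enzyme, differed by 0.31 (adjusted p = 0.081), Thrsp, the Spot14 protein of lipogenesis, by 0.12 (adjusted p = 0.255), and Dio1, the deiodinase that is a classical thyroid target, by -0.11 (adjusted p = 0.214).

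Besides Nr3c2, the steroid receptors were Nr3c1, the glucocorticoid receptor, and Esr1, estrogen receptor alpha. Nr3c1 read 1.02 and 1.05 in wild type, 1.09 and 1.06 in supplemented and 1.12 and 1.17 in deficient knockouts. Its groups rose in that order without overlap, and the difference of 0.11 from wild type (SE 0.042, 1.29-fold, adjusted p = 0.185) did not pass. Esr1 read 0.65 and 0.74 in wild type, 0.47 and 0.39 in supplemented and 0.49 and 0.71 in deficient knockouts. The supplemented pair was below all others, by 0.26 against wild type (SE 0.073, 1.84-fold lower, adjusted p = 0.29), and the deficient pair was the widest of any receptor in that group.

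Of 11 glucocorticoid receptor targets tested, 2 rose and 1 fell in deficient knockouts against wild type. Fkbp5, a chaperone-bound brake on the receptor that glucocorticoids normally induce, read 1.16 and 1.22 in wild type, 1.06 and 0.96 in supplemented and 0.46 and 0.55 in deficient knockouts. It fell against wild type by 0.68 on the log10 scale (adjusted p = 0.00327), and against supplemented knockouts by 0.50 (adjusted p = 0.0263). Per1, a clock gene with a glucocorticoid element, went the other way, from 0.41 and 0.42 to 0.68 and 0.72 (0.28, 1.92-fold, adjusted p = 0.0168). Igfbp1, a secreted protein that binds IGFs, rose by 0.77 (5.86-fold, adjusted p = 0.0424), with the deficient pair at 0.93 and 1.44. Members of this list therefore moved in both directions, and its median difference was -0.00066.

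The orphan receptors, beside Rora, were led by Hnf4a, the factor that maintains hepatocyte identity. Hnf4a read 2.01 and 1.97 in wild type, 2.01 and 2.17 in supplemented and 2.05 and 2.0 in deficient knockouts, a difference from wild type of 0.03 (95% interval -0.10 to 0.17). Nr6a1, the germ cell nuclear factor, read 0.49 and 0.50, then 0.51 and 0.58, then 0.63 and 0.61. The groups did not overlap and deficient livers lay 0.12 above wild type (SE 0.043, 1.33-fold, adjusted p = 0.149). Nr2f2, the COUP-TFII receptor, had the same order and lay 0.10 above wild type (adjusted p = 0.234), while Esrra, an activator of mitochondrial genes, read 0.67 and 0.66, then 0.63 and 0.52, then 0.53 and 0.57 (-0.12, SE 0.049, adjusted p = 0.219). Nr2c1, Nr2c2, Nr2f6 and Esrrg differed from wild type by -0.02 to 0.05, and Hnf4g and Nr2f1, below the filter, read -0.26 to -0.09 and 0.14 to 0.22.

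Of 12 HNF4A targets tested, Cyp8b1 rose and Apoa4, an apolipoprotein, fell by 0.46 on the log10 scale (adjusted p = 0.0212). Of 7 genes on the list for the ROR receptors, 2 rose and 1 fell: Cyp8b1, Nr1d1 (0.32, 2.08-fold, adjusted p = 0.0337), which encodes the clock repressor REV-ERB alpha, and Avpr1a, the vasopressin receptor, which fell by 0.65 (adjusted p = 0.00219). Of 7 targets of the estrogen-related receptors, 0 passed with limma and 2 had an unadjusted p under 0.05, where 20.4% of all genes reached it. Idh3a, a citric acid cycle subunit, differed by -0.14 (adjusted p = 0.102), Acadm by 0.12 (adjusted p = 0.18), and Pdk4, which gates pyruvate oxidation, by 0.10 (adjusted p = 0.542). Calb1, the only vitamin D target tested of 4 listed, differed by 0.07 (adjusted p = 0.6).

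The immediate-early receptors of the NR4A family, which respond within minutes to hormones and stress, did not pass. In each comparison 4.63% of all genes or fewer did. Nr4a2 read 0.26 and 0.27 in wild type, 0.34 and 0.35 in supplemented and 0.41 and 0.41 in deficient knockouts. The arrays of a pair nearly coincided, the groups did not overlap, and the difference of 0.15 from wild type (SE 0.039, 1.40-fold) had an adjusted p of 0.0771. These Nr4a2 values lay near or below the array medians (0.350 to 0.392), where low values may be background. Nr4a1 read 0.36 and 0.38, then 0.35 and 0.54, then 0.36 and 0.21, and Nr4a3 read 0.52 and 0.37, then 0.38 and 0.56, then 0.46 and 0.31. Their pairs differed by up to 0.19, so these family members gave no order.

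In AA-supplemented knockouts against wild type, 0 of the 31 receptors passed with limma, where 0.00682% of all genes did, which was Rgn alone. At an unadjusted p under 0.05 there were 3 receptors, where 10.6% of all genes reached it: Rora above wild type, Esr1 and Rxrg below. The next receptors by p were Nr4a2 (0.08, adjusted p = 0.545), Rarb (-0.10, adjusted p = 0.554) and Esrra (-0.09, adjusted p = 0.58). The supplemented pair lay wholly above wild type for 7 receptors and wholly below for 7, 14 in all, and over all genes these shares were 19.8%, 18.8% and 38.6%. The median difference was 0.014, with 18 receptors above 0, where 7197 of 14662 genes were. The receptors as a set were thus near the background here. With a variance trend and robust fitting Rora passed (adjusted p = 0.0417), 1 receptor in all.

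Between deficient and supplemented knockouts, which share the deletion, 0 of 31 receptors passed with limma and 0.205% of all genes did. At an unadjusted p under 0.05 there were 6 receptors, where 9.92% of all genes reached it, and all of these 6 were higher in deficient livers: Nr3c2, Nr1i3, Rarb, Nr0b2, Rxrg and Esr1. For the last of these, Esr1, the difference was 0.17 (SE 0.073, 1.48-fold, adjusted p = 0.499). The deficient pair lay wholly above the supplemented pair for 16 receptors and wholly below for 2, 18 in all, where 19.8%, 17.5% and 37.3% of all genes did so. The median difference was 0.043 with 22 receptors above 0, where 7334 of 14662 genes were, against a median over all genes of 3.1e-05. Nr3c2 passed with a variance trend (adjusted p = 0.0458), also with robust fitting (adjusted p = 0.0305). The comparisons share arrays in pairs, so their differences are not independent of each other.

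The order wild type below supplemented below deficient, with no overlap between the groups, was found for 6 receptors: Rora, Nr4a2, Ppara, Nr6a1, Nr3c1 and Nr2f2. This was 19.4% of the receptors tested, and 5.73% of all genes had that order. The reverse order was found for Nr1h4 alone, 3.23% of receptors against 4.01% of all genes. Nr3c2 and Nr1i3 were not among the ordered genes because their supplemented pairs overlapped wild type.

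**Figure D4:**
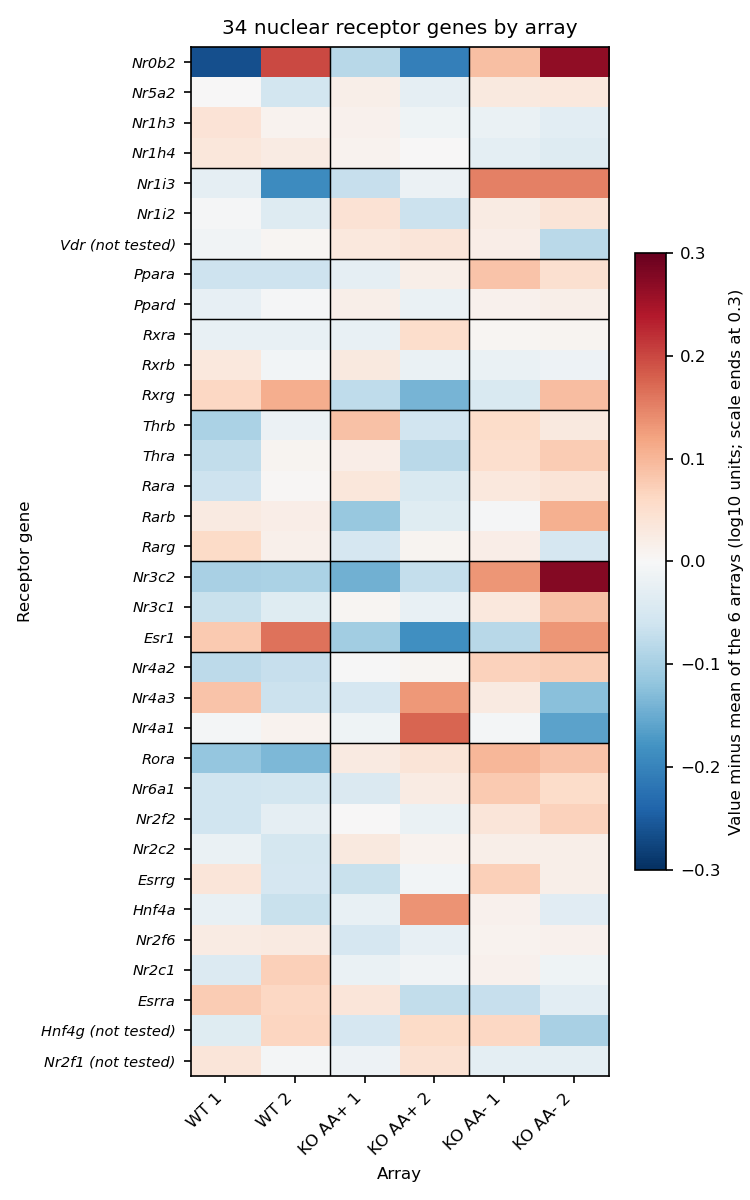
Deviation of each array from the gene's mean over the 6 arrays (log10 units, colour scale from -0.3 to 0.3), with 34 receptors as rows grouped by role and arrays as columns grouped by condition. Deficient arrays are above the mean for Rora, Nr3c2, Nr1i3, Ppara and Nr4a2, and the wild type pair disagrees most for Nr0b2.

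Many of the receptor genes are long, and the difference from wild type moved with gene length in these data. Of the 31 receptors tested, 15 were among the longest 20% of genes (a span in the genome of 63.3 kb or more, RefSeq GRCm38.p6). Among these 15, 13 differences in deficient knockouts were above 0, the median was 0.053 and 2 rose, Rora with a span of 734.8 kb and Nr3c2 with 346.9 kb. Among the 16 shorter receptors, 7 differences were above 0, the median was -0.015 and 1 rose, Nr1i3 with a span of 4.9 kb. All genes in the longest 20% had a median of 0.039, with 1946 of 2924 differences above 0 and 236 called higher and 28 lower. With the trend on span removed from each array, Nr3c2 (adjusted p = 0.0467) and Nr1i3 (0.28, adjusted p = 0.0291) still passed and Rora did not, and the median over receptors was 0.014. The part of gene length in these results was not tested further.

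**Figure D5:**
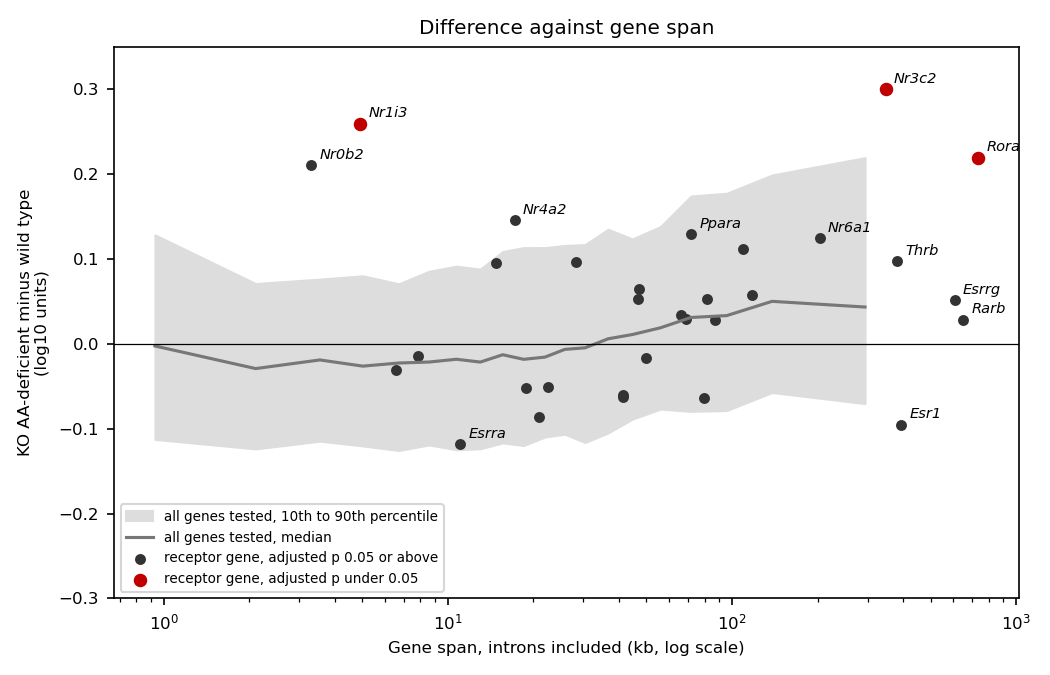
Difference between deficient knockouts and wild type (log10 units) against the span of the gene in the genome (kb, log axis) for the 31 receptors tested; the grey band is the 10th to 90th percentile and the line the median of all genes in 20 bins of span, and red marks an adjusted p under 0.05. Rora and Nr3c2 lie at long spans and Nr1i3 at a short one.

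Of 161 genes on the lists of receptor targets, coregulators, chaperones and other nuclear receptors, 132 were tested, of which 2 (Nr0b2 and Rarb) are also receptors of the set. In deficient knockouts 16 rose and 6 fell against wild type, 16.7% of them where 4.63% of all genes passed, with a median difference of 0.048. Leaving out a wild type or a deficient array leaves 1 array in that group. Most of these calls were then lost, and so were most calls over all genes. Against wild type 0 passed in supplemented knockouts with limma, where 0.00682% of all genes did. At an unadjusted p under 0.05 there were 30, where 10.6% of all genes reached it. Avpr1a (-0.29, adjusted p = 0.135), Fasn (0.22, adjusted p = 0.19) and Crebbp had the smallest p. Between the knockout groups 2 passed, Fkbp5 and Avpr1a, which fell by 0.50 and 0.36. Both calls were lost in most fits that left out an array, as were most calls over all genes. Over all alternative settings the difference ran from -0.55 to -0.45 for Fkbp5 and from -0.38 to -0.34 for Avpr1a. With all arrays, 1.52% of the genes tested on these lists passed between the knockout groups, and 0.205% of all genes. Next to Fkbp5 and Avpr1a came Per1 (0.25, adjusted p = 0.087), Srebf1 (0.40, adjusted p = 0.104), Pparg (0.24, adjusted p = 0.104) and Sult1d1 (-0.24, adjusted p = 0.104), which did not pass.

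The genes of smallest p on each target list are given for the other comparisons too, and none of them passed apart from Fkbp5 and Avpr1a between the knockout groups. Supplemented knockouts differed from wild type by 0.17 for Cyp8b1 (adjusted p = 0.35), 0.12 for Ehhadh (adjusted p = 0.428) and 0.16 for Abcg8 (adjusted p = 0.386). Abcc3 differed by 0.19 (adjusted p = 0.238) and Abcc2, the canalicular exporter Mrp2, by 0.16 (adjusted p = 0.374). Among hormone and retinoid targets, Thrsp differed by -0.16 (adjusted p = 0.369), Fkbp5 by -0.18 (adjusted p = 0.324), Sgk1, a hormone-induced kinase, by -0.11 (adjusted p = 0.469) and Dhrs3 by 0.10 (adjusted p = 0.415). Targets of the orphan receptors were Apob, the main protein of VLDL, at 0.24 (adjusted p = 0.233), Nr1d1 at 0.20 (adjusted p = 0.34), Idh3a at -0.07 (adjusted p = 0.618) and Acadm at 0.07 (adjusted p = 0.643), and Calb1 of the vitamin D list lay at -0.04 (adjusted p = 0.885).

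Between deficient and supplemented knockouts, Cyp8b1 differed by 0.20 (adjusted p = 0.226), Baat by -0.12 (adjusted p = 0.346) and Abcg8 by 0.24 (adjusted p = 0.178). The peroxisomal gene Acaa1b differed by 0.17 (adjusted p = 0.281) and Pex11a, which divides peroxisomes, by -0.15 (adjusted p = 0.288), so that these PPAR alpha targets had opposite signs. Abcc3 lay at 0.24 (adjusted p = 0.128), Thrsp at 0.28 (adjusted p = 0.117), Fasn at 0.23 (adjusted p = 0.132) and Dhrs3 at 0.17 (adjusted p = 0.178). Apoa4 lay at -0.31 (adjusted p = 0.19), Idh3a at -0.07 (adjusted p = 0.646), Acadm at 0.05 (adjusted p = 0.813) and Calb1 at 0.11 (adjusted p = 0.672).

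Coactivators, which open chromatin for a receptor with ligand, had 3 of 14 members higher in deficient knockouts and 0 lower, where 3.08% and 1.55% of all genes were called. Crebbp, the CBP acetyltransferase, read 0.93 and 1.05 in wild type, 1.24 and 1.26 in supplemented and 1.24 and 1.28 in deficient knockouts (0.27, 1.87-fold, adjusted p = 0.0303). Ncoa1, the steroid receptor coactivator SRC-1, rose by 0.24 (1.74-fold, adjusted p = 0.0311), and Ppargc1b, the PGC-1 beta partner of lipogenic receptors, by 0.23 (1.70-fold, adjusted p = 0.0302). Supplemented knockouts lay above wild type by 0.26 for Crebbp, 0.18 for Ncoa1 and 0.14 for Ppargc1b without passing (adjusted p of 0.19, 0.229 and 0.34). Their spans were 132.6, 229.8 and 109.3 kb, so that they too are among the longest 20% of genes, of which 9.03% were called (236 higher and 28 lower of 2924). Of 10 corepressors tested 0 passed with limma and 4 had an unadjusted p under 0.05, where 4.63% and 20.4% of all genes did. Lcor differed by 0.18 (adjusted p = 0.0728) and Tbl1x by 0.16 (adjusted p = 0.104). Lcor also had the smallest p of its list between supplemented knockouts and wild type (0.18, adjusted p = 0.249), with Rcor1 next (0.10, adjusted p = 0.467). Between the knockout groups the smallest p among coregulators were those of the coactivators Pprc1 (-0.17, adjusted p = 0.295) and Ncoa4 (-0.11, adjusted p = 0.47) and of the corepressor genes Hdac3 (0.08, adjusted p = 0.616) and Tbl1xr1 (-0.09, adjusted p = 0.641).

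Among 9 chaperones that fold and hold steroid receptors, 2 fell and 0 rose against wild type. Beside Fkbp5, which is on this list too, Hsp90aa1, the inducible HSP90, fell by 0.23 (adjusted p = 0.043), from 1.72 and 1.62 in wild type to 1.44 and 1.45 in deficient knockouts. It differed by -0.21 between the knockout groups (adjusted p = 0.182), and Hspa8, the constitutive HSC70, by 0.21 between supplemented knockouts and wild type (adjusted p = 0.29). Other nuclear receptor genes, outside the set, were tested for 6 of 13 listed, and 2 rose. Pparg, the PPAR of fat storage, read 0.63 and 0.59 in wild type, 0.81 and 0.85 in supplemented and 1.05 and 1.10 in deficient knockouts (0.47, 2.92-fold, adjusted p = 0.00478), and Nr1d1 is given above. Pparg lay 0.22 above wild type in supplemented knockouts (adjusted p = 0.19), and Rorb differed by 0.09 between the knockout groups (adjusted p = 0.548).

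In whole liver, fewer cells of a type and less RNA per cell cannot be told apart. Marker lists of other liver cells were read on each array as the mean over the list. Kupffer cell markers averaged 0.85 to 1.0, stellate cell markers 0.68 to 0.79, cholangiocyte markers 0.23 to 0.36 and lymphocyte markers 0.04 to 0.30. With limma 0 genes of these lists passed in deficient knockouts against wild type, where 4.63% of all genes did. At an unadjusted p under 0.05 there were 2 stellate genes and 0 of the others, where 20.4% of all genes reached it. Differences were above 0 for 7 of 7 Kupffer cell genes tested (median 0.054) and 4 of 7 stellate genes. They were above 0 for 1 of 3 cholangiocyte and 1 of 2 lymphocyte genes, and for 7113 of all 14662 genes. Sinusoidal endothelial markers averaged 1.11 and 1.15 in deficient knockouts and 1.04 and 1.07 in wild type. Of the 7, 1 rose, Stab2 by 0.24, where 3.08% of all genes did. Their differences were above 0 for 5 and below 0 for 2, and Clec4g was at -0.07 (adjusted p = 0.403). With limma 3 of the 7 had an unadjusted p under 0.05, where 20.4% of all genes did. The part of these cell types in the receptor differences was not tested.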

How the data were processed

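Liver RNA of male mice (6 samples) was read on Affymetrix arrays after ISOGEN extraction and biotin labelling with the GeneChip WT Terminal Labeling Kit, per the labels' protocols. The deposited values are on a log scale, taken here as log10; the software, summarisation, normalisation and log base behind them are not known from the labels or file headers. Of 34760 probe sets, 3995 held no value. Of the other 30765, 21161 carried 1 symbol in the platform annotation, 1150 several and 8454 none, and 21079 matched RefSeq (GRCm38.p6) by Entrez identifier. For the 925 genes with several probe sets the one of highest mean was taken.

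All 6 arrays entered 1 fit (limma 3.58.1 in R 4.3.3, lmFit and eBayes, 3 residual and 4.89 prior degrees of freedom) without pseudocount. Two-sided p-values were adjusted after Benjamini and Hochberg within each comparison, over every gene that passed the filter, and passed under 0.05. The number of arrays limits the precision. Without detection calls, low values may be background. The script was tested on simulated data.

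The receptors, gene lists and tests were chosen with earlier results of these data known. Receptors are named in full where they passed or were among the 6 of smallest p in a comparison, along with 10 well known in hepatocytes; list genes where they passed, were among the 2 of smallest p in a list or are a receptor's usual readout. Alternatives changed the normalisation, filter, fit options, arrays, replicate block, probe set rule and trend on gene span. The groups' replicate numbers were checked for pairing: deviations correlated at -0.369 (deficient with supplemented), 0.358 (deficient with wild type) and -0.284 (supplemented with wild type). Because the signs differed, the numbers were not used to pair the samples. These correlations cannot decide whether arrays were paired or shared a batch, since the labels do not say what a number stands for.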

Additional observations from a re-analysis of the deposited data

How the results depend on the processing

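Counts at an adjusted p under 0.05 depended on the fit more than the differences did; the cause was not tested unless stated. For deficient knockouts against wild type the main fit gave 3 receptors and 679 genes in all. It gave 22 genes of the target, coregulator, chaperone and other receptor lists, called list genes here. Keeping genes of low value left 0 receptors, 10 list genes and 173 genes. At an unadjusted p under 0.05 it left 7 receptors, where the main fit had 9. The filter at the 50th percentile gave 1057 genes, a variance trend 41 list genes and 1271 genes, trend with robust fitting 4 receptors (with Ppara added), 37 list genes and 1312 genes, and a fit of only the 4 arrays compared 1031 genes. For supplemented knockouts against wild type (0, 0 and 1), median centring gave 8 genes, removal of the span trend 2, a variance trend 4 list genes and 94 genes, and trend with robust fitting 1 receptor (Rora), 5 list genes and 116 genes. For deficient against supplemented knockouts (0, 2 and 30), quantile normalisation left 1 list gene and 11 genes, cyclic loess 11 genes, and no filter and the 4 arrays alone 0 list genes and 0 genes each (1550 and 1230 at an unadjusted p under 0.05). Median centring gave 56 genes, the 50th percentile 51 and the span trend 47. A variance trend gave 1 receptor (Nr3c2), 12 list genes and 154 genes, and robust fitting 1, 12 and 177. Of the 30 genes in this comparison 6 were higher; with quantile or cyclic loess normalisation 0 of 11 were, and with the variance trend 66 of 154.

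With the replicate number as a block, 0 receptors, 9 list genes and 163 genes passed in deficient knockouts against wild type (adjusted p of 0.0716 for Rora, 0.0549 for Nr3c2 and 0.0973 for Nr1i3), 3 genes in supplemented knockouts against wild type, and 0 list genes and 4 genes between the knockout groups. The labels do not say that a number marks a shared litter or day. Exchanging the numbers of the supplemented knockouts in the block, an alternative added after seeing the data, gave 4 receptors (with Nr4a2 added), 38 list genes and 1561 genes, then 0 receptors and 1 gene, then 0 receptors, 5 list genes and 75 genes.

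Leaving out 1 array at a time gave 0 to 3 receptors, 0 to 32 list genes and 1 to 1031 genes against wild type in deficient knockouts. It gave 1 to 7 genes for supplemented knockouts against wild type, and 0 to 2 list genes and 0 to 46 genes between the knockout groups. The median difference of the receptors stayed above 0 in each of these settings except for supplemented knockouts against wild type, where it was -0.00188 without supplemented array 1.

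None of the differences that changed sign when an array was left out had passed. Against wild type in deficient knockouts the ranges were -0.20 to 0.013 for Esr1, -0.13 to 0.0072 for Rxrg, -0.32 to 0.39 for Cyp7a1, -0.027 to 0.084 for Rarb, -0.020 to 0.16 for Cyp26a1 and -0.020 to 0.44 for Nr0b2. In supplemented knockouts against wild type they were -0.13 to 0.068 for Cyp26a1, -0.026 to 0.64 for Cyp4a14, -0.046 to 0.00436 for Dio1, -0.071 to 0.032 for Hsp90aa1, -0.043 to 0.063 for Nr1i2, -0.048 to 0.026 for Nr3c2, -0.011 to 0.14 for Srebf1, -0.011 to 0.22 for Pdk4, -0.0017 to 0.075 for Rxra, -0.34 to 0.12 for Nr0b2 and -0.016 to 0.15 for Nr1i3. Between the knockout groups they were -0.015 to 0.037 for Abcb11, -0.0054 to 0.034 for Crebbp, -0.12 to 0.11 for Pdk4, -0.000146 to 0.19 for Cyp26a1, -0.0875 to 0.023 for Esrra, -0.14 to 0.012 for Hnf4a, -0.010 to 0.096 for Nr1i2 and -0.047 to 0.030 for Rxra. Rarb also changed sign against wild type with the span trend removed (-0.027), and Pdk4 between the knockout groups with median centring (0.000983) and with the span trend removed (0.0031).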

Other observations

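Clock genes were read beside the receptors because Rora and Nr1d1, a receptor that represses, belong to the clock loop; the hour of collection is not known here. Of 16 clock genes tested, 2 rose and 1 fell in deficient knockouts against wild type, with a median difference of 0.046; over all genes 4.63% passed and the median was -0.0034. Nr1d1 read 1.49 and 1.64 in wild type, 1.74 and 1.80 in supplemented and 1.94 and 1.83 in deficient knockouts, and Per1 read 0.41 and 0.42, then 0.47 and 0.42, then 0.68 and 0.72. Ciart, a clock repressor, fell by 0.39 on the log10 scale (adjusted p = 0.0385), from 1.25 and 1.23 in wild type to 0.98 and 0.73 in deficient knockouts. In supplemented knockouts 0 of the 16 passed against wild type with limma and 1 had an unadjusted p under 0.05, where 10.6% of all genes reached it. The smallest p were those of Nr1d1 (0.20, adjusted p = 0.34) and Nfil3, a clock output repressor (0.08, adjusted p = 0.574). Between the knockout groups Per1 differed by 0.25 (adjusted p = 0.087) and Ciart by -0.36 (adjusted p = 0.151), and neither passed.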
